A study of Homo sapiens with 4 samples.

Results

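Human chromosome 7 carries genes for zinc finger proteins on both arms. The genes described here are those whose symbol begins with ZNF and whose first exon in the count table lies on chromosome 7, and there were 40 of them among the 28775 genes of the table. They were grouped by their start on the T2T-CHM13v2.0 assembly. A start below 61 Mb, left of the centromere, gave 8 genes on 7p, a start from there to below 79 Mb gave 12 genes in 7q11, and 13 genes toward the end of the long arm, from 150251767 to 151576951, made up the 7q36 group. The other 7 genes lay between the last 2 groups (7q21-7q35) and were given by their values but not counted among the 3 groups compared. By annotation 35 members were protein-coding, 4 were transcribed pseudogenes and 1, ZNF775-AS1, was a long non-coding RNA.

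RNA was measured in HEK293T, a transformed line of human embryonic kidney origin. The 2 MORC2 KO samples were HEK293T lines in which MORC2 had been knocked out with Cas9 and gRNA 1 (replicate 1) or gRNA 2 (replicate 2), and the 2 WT samples were wild-type HEK293T. The KO lines were edited populations and not clones, and each gRNA was represented by 1 sample. The study's methods describe the KO samples as independent lines and the WT samples as independent replicates, and the p-values below measure the spread between these samples. The counts summed to between 53970043 and 64312514 read pairs per sample. The HEK293T genes VIM (561 CPM in WT, where CPM is the count scaled to library size), LIN28B (91.6 CPM) and NEFL (68.1 CPM) were abundant, NEFM, KRT18 and KRT8 lay between 2.24 and 6.68 CPM, and the blood, fibroblast and endothelial markers PTPRC, CD3E, DCN, LUM, CDH5 and PECAM1 had at most 5 counts in any sample, and the liver marker ALB had 6 to 14.

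Most ZNF genes encode proteins with a run of C2H2 zinc fingers that bind DNA, and many also carry a KRAB domain. KRAB zinc finger proteins bring the corepressor TRIM28 and the methyltransferase SETDB1 to transposable elements, where histone H3 lysine 9 is trimethylated. MORC2 is an ATPase that takes part in silencing by the HUSH complex, which also works with SETDB1, and the 3′ exons of zinc finger genes are themselves known to carry this mark. Clusters of KRAB zinc finger genes arose by tandem duplication, and the pericentromeric cluster in 7q11 is of this kind, whereas several genes of the 7q36 cluster encode an older, variant form of the KRAB domain. The comparison asked how RNA of these genes differed once MORC2 was removed.

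None of the 32 members that could be tested was called changed at an edgeR adjusted p under 0.05, where 0.588% of all tested genes were called higher in MORC2 KO and 0.03% lower. At an unadjusted p under 0.05, 5 of the members were higher and 0 lower, beside 8.14% and 6.17% of all tested genes. Most of the 32 lay slightly above WT in the MORC2 KO samples, with 26 positive log2 fold changes (81.2%) and a median of 0.05. Over all tested genes 51.5% were positive and the median was 0.005. With trends on GC content and length removed, the median was -0.0037 for the members and -0.037 for all tested genes. The 3 members with the smallest p were ZNF853 on 7p, ZNF736 in 7q11 and ZNF783 in 7q36, 1 in each group, at 1.21 to 1.45 times the WT level. The 8 members of 7q11 that could be tested were all on the positive side, although ZNF138 lay so close to 0 that DESeq2 put it below.

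Promoters of selected members, none of them called changed, are printed first, since the groups differ in promoter sequence as well as in position. RefSeq (GRCh38.p14) gave 37 promoter windows of 300 bases, from 250 before to 50 after a transcript start, for 31 of the 40 members, and none for ZNF890P, ZNF815P, ZNF733P, ZNF804B, ZNF394, ZNF777, ZNF746, ZNF767P and ZNF775-AS1. Each is written 5′ to 3′ on the strand of its gene, with CG dinucleotides in capitals. ZNF853 (chr7:6615360-6615659, plus strand), ZNF736 (chr7:64313711-64314010, plus strand) and ZNF783 (chr7:149261946-149262245, plus strand) are shown as the members with the smallest p. ZNF92 (chr7:65373605-65373904, plus strand) is shown as the member of 7q11 with the highest RNA level per length, and ZNF679 (chr7:64228224-64228523, plus strand) as a member of the same cluster at 1 to 4 counts per sample. ZNF425 (chr7:149126275-149126574, minus strand) is shown because its window overlaps a window of ZNF398.
ZNF853: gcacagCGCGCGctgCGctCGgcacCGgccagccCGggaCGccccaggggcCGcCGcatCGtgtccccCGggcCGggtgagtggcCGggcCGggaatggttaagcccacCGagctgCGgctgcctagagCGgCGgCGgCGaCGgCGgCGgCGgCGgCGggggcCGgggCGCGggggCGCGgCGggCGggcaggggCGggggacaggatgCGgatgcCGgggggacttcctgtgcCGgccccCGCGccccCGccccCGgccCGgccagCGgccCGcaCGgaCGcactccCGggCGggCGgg
ZNF736: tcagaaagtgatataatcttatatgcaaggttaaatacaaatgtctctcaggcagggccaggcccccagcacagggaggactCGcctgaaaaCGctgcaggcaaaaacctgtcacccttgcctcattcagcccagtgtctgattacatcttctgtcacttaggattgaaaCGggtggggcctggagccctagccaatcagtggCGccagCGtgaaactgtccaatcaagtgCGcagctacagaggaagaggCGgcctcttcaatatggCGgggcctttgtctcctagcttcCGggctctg
ZNF783: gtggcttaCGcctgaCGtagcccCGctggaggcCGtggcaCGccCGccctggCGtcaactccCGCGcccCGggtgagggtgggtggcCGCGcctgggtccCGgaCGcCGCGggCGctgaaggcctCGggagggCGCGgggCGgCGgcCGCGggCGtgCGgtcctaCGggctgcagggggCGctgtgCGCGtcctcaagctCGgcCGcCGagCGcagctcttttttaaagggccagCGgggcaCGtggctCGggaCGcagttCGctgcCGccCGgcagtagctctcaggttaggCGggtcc
ZNF92: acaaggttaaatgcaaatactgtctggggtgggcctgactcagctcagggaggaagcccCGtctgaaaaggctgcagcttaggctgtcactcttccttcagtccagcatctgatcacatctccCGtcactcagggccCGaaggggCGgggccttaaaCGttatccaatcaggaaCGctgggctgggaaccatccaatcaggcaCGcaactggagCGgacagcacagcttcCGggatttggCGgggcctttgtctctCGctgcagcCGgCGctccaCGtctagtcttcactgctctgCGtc
ZNF679: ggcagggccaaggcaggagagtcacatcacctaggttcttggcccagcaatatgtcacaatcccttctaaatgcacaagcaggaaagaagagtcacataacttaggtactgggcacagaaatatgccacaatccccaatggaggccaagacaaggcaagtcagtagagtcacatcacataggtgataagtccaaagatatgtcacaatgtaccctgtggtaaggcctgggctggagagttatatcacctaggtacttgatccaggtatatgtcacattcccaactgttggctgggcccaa
ZNF425: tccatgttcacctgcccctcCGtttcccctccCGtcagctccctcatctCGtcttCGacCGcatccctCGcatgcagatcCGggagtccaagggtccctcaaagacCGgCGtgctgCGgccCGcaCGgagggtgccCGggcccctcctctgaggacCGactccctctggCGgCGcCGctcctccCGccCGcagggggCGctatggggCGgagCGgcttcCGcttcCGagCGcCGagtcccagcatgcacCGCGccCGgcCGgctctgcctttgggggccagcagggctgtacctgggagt

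The window of ZNF853 held 50 CG dinucleotides, the most among the members, and that of ZNF783 held 42. The windows of the 7q11 genes were poorer, with 9 for ZNF736, 15 for ZNF92 and 0 for ZNF679. Over the 9 windows of tested 7q11 members the median was 13, against 35.5 over 4 windows on 7p and 31.5 over 10 windows in 7q36. The median was 24 over the windows of all tested genes of the table and 14 over all 35097 windows. A CpG-rich promoter is typical of broadly expressed genes, and the members followed the table in this respect, with a median of 26 over 31 windows of tested members and 6.5 over 6 windows of members too low to test, where the untested genes of the table had 5.

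The GC box, searched as GGGCGG on either strand, was found in 67.7% of the windows of tested members, 64.2% of those of all tested genes and 44.9% of all windows. It stood in 80% of the 7q36 windows and in 33.3% of the 7q11 windows. The WT level was summarised over all tested members, with or without a window. Its median per exonic length was 4.05 CPM per kb over 8 members in 7q11, against 1.55 over 6 on 7p and 5.80 over 12 in 7q36. The 7p value includes the pseudogenes ZNF890P and ZNF815P, at 0.22 and 0.96 CPM per kb, which had no window. Members too low to test are left out. These medians therefore do not show how promoter sequence and level go together.

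**Figure D1:**
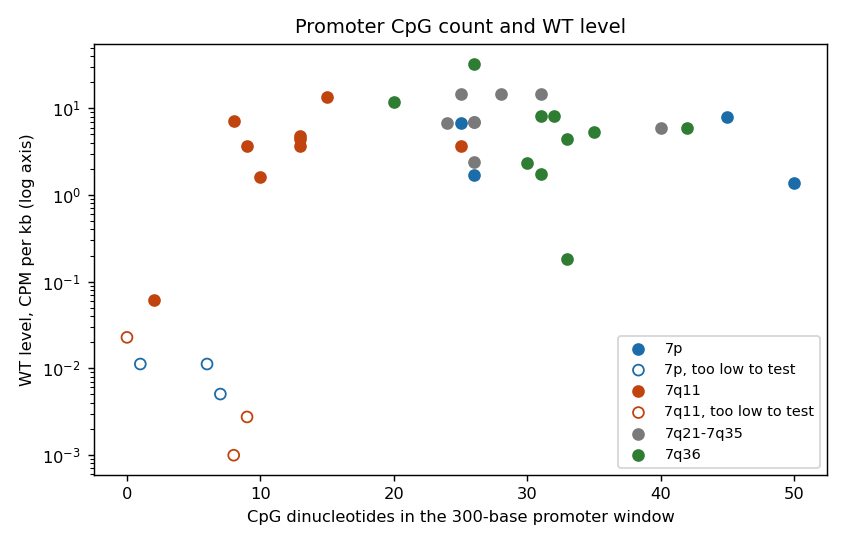
Number of CG dinucleotides in each 300-base promoter window (x axis) against the WT level of the gene in CPM per kb of exon (y axis, log scale). Each point is 1 of 37 windows, so a gene with several starts has several points, colours give the position on chromosome 7, and open points are members too low to test. Open points sit at 0 to 9 CG dinucleotides, the filled 7q11 points at 2 to 25, those of 7q36 at 20 to 42 and those of 7p at 25 to 50.

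As a check of the labels, MORC2 itself was counted 3064 and 3637 times after knockout, against 5131 and 4669 times in WT. Both KO samples lay below both WT samples. The mean was 53.1 ± 2.69 CPM in KO and 87.0 ± 1.06 CPM in WT (SD, n = 2), which is a log2 fold change of -0.71 (SE 0.06), and the edgeR quasi-likelihood F-test with Benjamini-Hochberg adjustment gave an adjusted p of 1.37e-04. MORC2 RNA was thus lower but still present, and protein was not measured in these libraries. The study's methods describe a western blot for MORC2 protein in the KO cells of both gRNAs. In bulk RNA, fewer cells with a transcript and less of it per cell cannot be told apart.

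Over the whole table, 16675 genes passed the filter on low counts. With the adjusted p under 0.05, 98 of them (0.588%) were called higher in MORC2 KO and 5 (0.03%) lower. Among the 32 tested chromosome 7 ZNF genes, 0 were called in either direction by edgeR, and 0 were called by DESeq2. At an unadjusted p under 0.05, 5 members were higher by edgeR and 0 were lower, where the background over all tested genes was 8.14% higher and 6.17% lower. DESeq2 gave 3 members at that unadjusted threshold. The lowest adjusted p of any member was 0.112, for ZNF853.

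The 0 calls did not hold under each setting run. Without MORC2 KO replicate 1, when gRNA 2 alone was compared with WT, 6 members were called higher (ZNF853, ZNF12, ZNF736, ZNF789, ZNF783 and ZNF862), but 1397 genes of the table were then called higher and 2117 lower. Without WT replicate 1, ZNF736 alone among the members was called, with 149 genes higher and 9 lower over the table. Without MORC2 KO replicate 2 or without WT replicate 2, 0 members were called. With all 4 libraries kept, 2 members (6.25%) were called higher with offsets on GC content and length, beside 0.912% of all tested genes. The replicate block gave 2 members (6.25%, beside 1.42%). With no filter on low counts 3 members were called higher (7.5% of 40, beside 2.04%).

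Both KO samples lay above both WT samples for 11 members and below them for 2, and for 19 members the groups overlapped. Over all tested genes 24.1% lay wholly above and 23.4% wholly below. The 11 members above were ZNF853 and ZNF12 on 7p, ZNF736, ZNF680, ZNF107 and ZNF92 in 7q11, ZNF655 in 7q21-7q35, and ZNF425, ZNF783, ZNF746 and ZNF775 in 7q36. The 2 members below were the pseudogene ZNF890P and ZNF394. Some of these gaps were narrow. The nearest KO and WT samples stood at 23.72 and 23.68 CPM for ZNF680 and at 10.269 and 10.268 CPM for ZNF775.

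**Figure D2:**
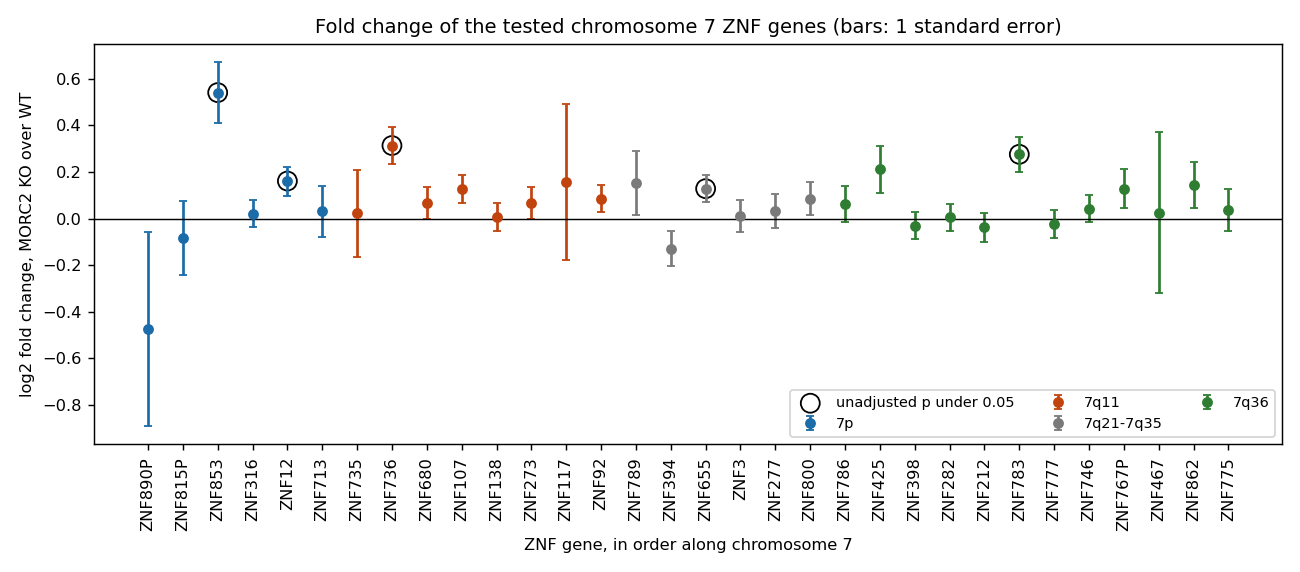
Log2 fold change of MORC2 KO over WT (y axis) for the 32 tested members in their order along chromosome 7 (x axis), with bars of 1 standard error and colours for the 4 positions. Circles mark the 5 members with an unadjusted p under 0.05, all above 0, and ZNF853 at 0.54 and ZNF890P at -0.47 are the extremes.

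On 7p the values were the most spread. ZNF853 (chr7:6734792-6743476 on T2T-CHM13v2.0, plus strand, 3 exons) encodes a C2H2 zinc finger protein and had 412 and 577 counts in KO and 332 and 275 in WT. KO replicate 2 was the highest and both KO samples stood above both WT samples. The means were 7.81 ± 1.30 CPM in KO and 5.37 ± 0.29 CPM in WT (SD, n = 2), which is a log2 fold change of 0.54 (SE 0.13) with an edgeR adjusted p of 0.112. The log2 fold change was 0.36 with KO replicate 1 alone and 0.69 with KO replicate 2 alone.

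The next members along 7p lay closer to WT. ZNF316, the next member to its right (chr7:6756509-6777459), had the highest WT level per length on 7p, 8.02 CPM per kb. Its counts were 3458 and 3968 in KO and 3450 and 3101 in WT, and after scaling the groups overlapped, with 58.9 ± 1.57 and 58.1 ± 0.20 CPM (log2 fold change 0.02, SE 0.06, edgeR adjusted p 0.901). ZNF12 (chr7:6807510-6826041, minus strand), a KRAB zinc finger gene, had 2212 and 2580 counts in KO and 1993 and 1838 in WT. Its means of 38.0 ± 1.45 and 34.0 ± 0.74 CPM did not overlap, and the log2 fold change was 0.16 (SE 0.06, edgeR adjusted p 0.285).

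The pseudogene ZNF890P (chr7:5239085-5262329, minus strand) had the lowest log2 fold change of the tested members, with 19 and 13 counts in KO and 20 and 20 in WT. The means were 0.257 ± 0.086 and 0.356 ± 0.028 CPM, and the log2 fold change of -0.47 had an SE of 0.42 (edgeR adjusted p 0.623), so it was not resolved at this depth. Of the 65-base windows of its transcript, 42.5% were identical to windows of another gene, ZNF815P, so its reads are uncertain. ZNF815P itself, another pseudogene, had a log2 fold change of -0.08. ZNF713, a KRAB zinc finger gene near the centromere, had 0.03. The 7p members ZNF479 and ZNF716, closer still to the centromere, had at most 4 counts in any sample and were not tested.

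In 7q11 the tested members ran from 0.01 to 0.31 on the log2 scale, with a median of 0.08. ZNF736 (chr7:65521810-65564509, plus strand, 4 exons), a KRAB zinc finger gene, had 2347 and 3046 counts in KO and 2149 and 1733 in WT. KO replicate 2 was again the highest and WT replicate 2 the lowest, and the groups did not overlap. The means were 42.7 ± 4.84 CPM in KO and 34.3 ± 2.51 CPM in WT (SD, n = 2), which is a log2 fold change of 0.31 (SE 0.08) with an edgeR adjusted p of 0.142. The log2 fold change was 0.19 with KO replicate 1 alone and 0.41 with KO replicate 2 alone. ZNF736 shared 0.765% of its 65-base windows with other genes, mainly ZNF727, which itself had at most 3 counts.

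ZNF92 (chr7:66584340-66611618, plus strand), a KRAB zinc finger gene, was the member of 7q11 with the highest WT level per length, 13.6 CPM per kb. Its counts were 2829 and 3136 in KO and 2643 and 2389 in WT. Both KO samples stood at 47.3 and 47.5 CPM and both WT samples at 44.4 and 44.9 CPM, a small difference that did not overlap (log2 fold change 0.09, SE 0.06, edgeR adjusted p 0.504). ZNF138 (chr7:66001955-66067000, plus strand) had the lowest log2 fold change of the group, with 2098 and 2266 counts in KO and 2080 and 1813 in WT. It stood at 34.7 ± 0.56 CPM in KO and 34.5 ± 0.63 CPM in WT, with overlapping samples (log2 fold change 0.01, SE 0.06, edgeR adjusted p 0.971), and DESeq2 put it at -0.00094, on the other side of 0.

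The remaining tested members of 7q11 were ZNF107 at 0.13, ZNF117 at 0.16, ZNF273 and ZNF680 at 0.07 and ZNF735 at 0.02 on the log2 scale. ZNF107 had 72.6 and 75.8 CPM in KO and 70.1 and 65.8 CPM in WT, without overlap (edgeR adjusted p 0.363). ZNF117 had only 28 and 51 counts in KO and 31 and 32 in WT, and 95.5% of its exonic bases are shared with the endogenous retroviral gene ERV3-1 or the ERV3-1-ZNF117 readthrough gene. Read pairs that overlap more than 1 gene were not counted, so its count can leave out part of its RNA. ERV3-1 had 251 and 371 counts in KO and 286 and 244 in WT (log2 fold change 0.07). ZNF733P, ZNF722, ZNF727 and ZNF679 had at most 4 counts in any sample and were not tested.

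Between these groups, in 7q21-7q35, 5 of the 6 tested members lay above 0 and ZNF394 lay below. ZNF655 (chr7:100797976-100815787, plus strand), also known as a Vav-interacting zinc finger gene, had 5541 and 6370 counts in KO and 5192 and 4562 in WT. It was also the member of this stretch with the highest WT level per length, 14.7 CPM per kb. The means of 94.5 ± 2.64 and 86.5 ± 1.09 CPM did not overlap, with a log2 fold change of 0.13 (SE 0.06, edgeR adjusted p 0.333).

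ZNF789 and ZNF394 lie tail to tail and their 3′ exons overlap on opposite strands. The overlap covers 10.1% of the exonic bases of ZNF789 and 17.1% of those of ZNF394, and read pairs there were not counted for either. ZNF789 (chr7:100711798-100726513), a KRAB zinc finger gene, had 602 and 887 counts in KO and 697 and 501 in WT, or 10.1, 13.4, 11.7 and 9.41 CPM. The groups overlapped and the log2 fold change of 0.15 (SE 0.14, edgeR adjusted p 0.626) turned to -0.07 without KO replicate 2. ZNF394 (chr7:100725427-100739185), whose protein has a SCAN and a KRAB domain, had 1004 and 1126 counts in KO and 1059 and 1023 in WT. At 16.9 ± 0.18 CPM in KO and 18.5 ± 1.01 CPM in WT it lay below WT in both KO samples (log2 fold change -0.13, SE 0.08, edgeR adjusted p 0.455). ZNF3, ZNF277 and ZNF800 had log2 fold changes of 0.01, 0.03 and 0.09, and their samples overlapped. ZNF3 shares 23.0% of its exonic bases with ZSCAN21. ZNF804B had 1 count in all 4 samples together and was not tested.

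In 7q36, where 12 of 13 members were tested, most values lay near 0. ZNF282 (chr7:150377373-150408083, plus strand), a repressor first described as binding a retroviral long terminal repeat, had the highest WT level per length of all members, 32.9 CPM per kb. Its counts were 7341 and 7821 in KO and 6969 and 6558 in WT, or 123, 118, 117 and 123 CPM, with full overlap of the groups. The log2 fold change was 0.005 (SE 0.06, edgeR adjusted p 0.978). ZNF212 (chr7:150421475-150437430, plus strand) had the lowest log2 fold change of the group, -0.04 (SE 0.06, edgeR adjusted p 0.820), with 1983 and 2139 counts in KO and 1972 and 1815 in WT, or 32.8 ± 0.56 and 33.6 ± 0.68 CPM. It rose above 0, to 0.0025, when samples were scaled to library size alone, where the median of all tested genes was 0.045.

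ZNF783 (chr7:150444011-150466766, plus strand, 8 exons), the next member to the right of ZNF212, had the highest log2 fold change of this cluster. It was not called. Its counts were 1859 and 2348 in KO and 1671 and 1435 in WT. KO replicate 2 was the highest and the groups did not overlap. The means were 33.3 ± 3.14 CPM in KO and 27.5 ± 0.79 CPM in WT (SD, n = 2), which is a log2 fold change of 0.28 (SE 0.07) with an edgeR adjusted p of 0.155. The log2 fold change was 0.18 with KO replicate 1 alone and 0.35 with KO replicate 2 alone. It shared 0.456% of its 65-base windows with other genes.

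ZNF425 and ZNF398 start head to head, 83 bases apart on T2T-CHM13v2.0, and their promoter windows share 183 bases, those at the 3′ end of the ZNF425 sequence printed above. ZNF398 also had a separate window, at chr7:149147203-149147502 on GRCh38.p14, which ZNF425 does not share. ZNF425 had 501 and 586 counts in KO and 446 and 394 in WT, at a log2 fold change of 0.21 (SE 0.10, edgeR adjusted p 0.361), and both KO samples lay above both WT samples. ZNF398, whose protein interacts with the oestrogen receptor, had 2815 and 3045 counts in KO and 2865 and 2503 in WT, at -0.03 (SE 0.06, edgeR adjusted p 0.841), with overlapping samples. The ZNF425 level was 17.8% and 19.2% of the ZNF398 level after knockout and 15.6% and 15.7% in WT, before allowing for length. These ratios did not overlap, but the two-sided exact permutation test over samples gave p = 0.333, which is the smallest that 2 samples against 2 allow.

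The other tested members of 7q36 had log2 fold changes between -0.02 and 0.14. ZNF746, which encodes the PPARGC1A repressor PARIS, had 54.6 and 56.1 CPM in KO and 53.7 and 53.7 CPM in WT (0.04), and ZNF777 had 55.6 ± 0.84 and 56.4 ± 2.61 CPM (-0.02). ZNF767P and ZNF862 had the larger values, 0.13 and 0.14, with overlapping samples. ZNF786, ZNF775 and ZNF467, a gene known from adipocyte differentiation, had 0.06, 0.04 and 0.03, and ZNF467 rested on 25 to 36 counts. ZNF862 shared 30.4% of its 65-base windows with another annotated gene, ZNF775 21.8% and ZNF713 on 7p 22.8%. ZNF775-AS1, which lies inside ZNF775 on the other strand, had 2 to 10 counts and was not tested.

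**Figure D3:**
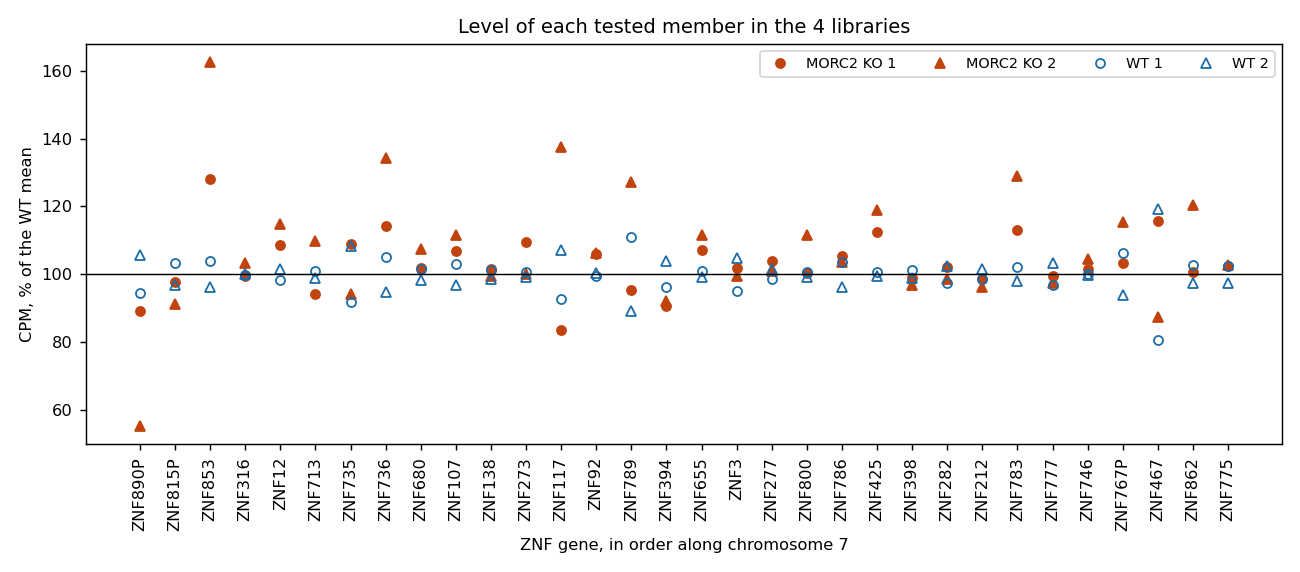
CPM of each tested member in the 4 libraries as a percentage of the mean of the 2 WT samples (y axis), in order along chromosome 7 (x axis). Filled red symbols are MORC2 KO and open blue symbols WT, with circles for replicate 1 and triangles for replicate 2. For ZNF853, ZNF736 and ZNF783 both red symbols stand above both blue ones and KO replicate 2 stands highest.

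The medians of the groups were close to each other. The median log2 fold change was 0.03 on 7p (6 members), 0.08 in 7q11 (8 members), 0.06 in 7q21-7q35 (6 members) and 0.04 in 7q36 (12 members), against 0.05 for all 32 and 0.005 for all 16675 tested genes. These are descriptions, and no test over the groups was made. The sign of these medians depended on the treatment of GC content and length. With offsets that remove trends on both, the median was -0.03 in 7q36 and on 7p, -0.0037 over all members and 0.02 in 7q11, while the median of all tested genes was -0.04. The 7p median also moved with the KO samples, to -0.02 without KO replicate 2 and 0.08 without KO replicate 1, and was 0.10 over its 4 tested protein-coding members. The transcripts of the groups differed in base composition, with a median GC content of 35.6% in 7q11, 57.0% in 7q36 and 57.5% on 7p, and the part of this difference in the result was not tested further.

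Across the tested members, the log2 fold change had a Spearman correlation of -0.24 with transcript GC content (31 genes), 0.46 with exonic length (32 genes) and -0.04 with the WT level. These are correlations across genes of the same 4 libraries, and genes are not independent replicates. The members of 7q11 were the longest as well as the poorest in GC, with a median exonic length of 7517.5 bases against 3432.5 in 7q36.

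The summed level of each group puts more weight on abundant members. The 8 tested members of 7q11 summed to 249.8 and 258.1 CPM in KO and 238.4 and 229.5 CPM in WT, and the KO mean was 108.5% of the WT mean. The 12 of 7q36 summed to 416.4 and 419.9 CPM in KO and 405.8 and 409.3 CPM in WT, 102.6% of WT. The 6 of 7p stood at 106.6% and the 6 of 7q21-7q35 at 105.1%. In each of the 4 groups both KO samples lay above both WT samples, and KO replicate 2 lay above KO replicate 1. The 470 tested ZNF genes on other chromosomes did the same, at 105.0% and 107.0% of the WT mean in KO replicates 1 and 2. All tested genes summed to 98.6% and 96.0%. No offsets on GC content and length were applied to the sums. The 7q11 sum was 60.0% and 61.5% of the 7q36 sum after knockout and 58.8% and 56.1% in WT.

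**Figure D4:**
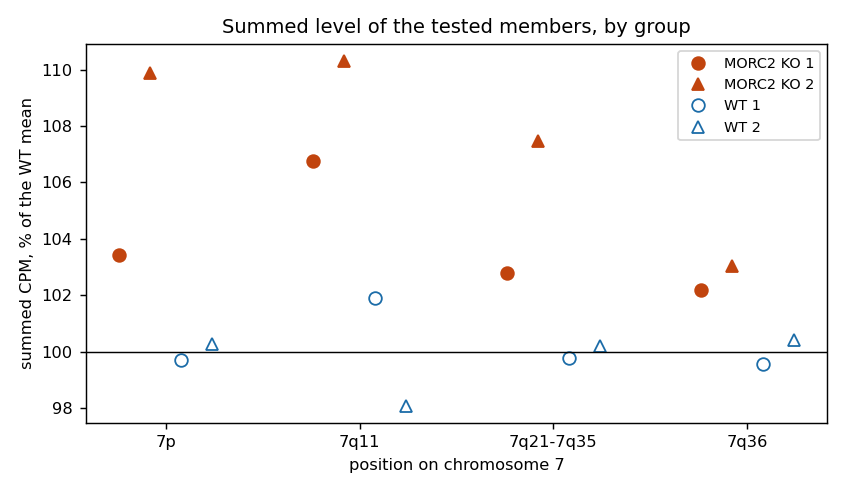
Summed CPM of the tested members of each positional group (x axis) in each library, as a percentage of the mean of the 2 WT samples (y axis, which does not start at 0). Filled red symbols are MORC2 KO and open blue symbols WT, circles replicate 1 and triangles replicate 2, and both red symbols stand above both blue ones in each group, from 102.2% for KO replicate 1 in 7q36 to 110.3% for KO replicate 2 in 7q11.

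The KO samples differed from each other. For all 32 tested members together the sums were 975.8 CPM in KO replicate 1 and 1003.7 CPM in KO replicate 2, and 944.1 and 940.1 CPM in WT. KO replicate 1 lay above the WT mean for 22 of 32 members and KO replicate 2 for 21. The matching shares of all tested genes were not counted. The median log2 ratio to the WT mean was 0.029 in KO replicate 1 and 0.057 in KO replicate 2 for the members. Over all tested genes it was -0.00065 and 0.011. KO replicate 2 exceeded KO replicate 1 for 19 members, or for 50.8% of all tested genes. The deviations of the KO samples from the WT mean had a Spearman correlation of 0.28 across the members, and since both deviations use the same WT mean, part of any such value comes from the shared WT samples.

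Zinc finger genes elsewhere in the genome leaned the same way. Of the 470 tested ZNF genes on other chromosomes, 383 (81.5%) lay above 0 on the log2 scale, as did 81.2% on chromosome 7 and 51.5% of all tested genes. Their median log2 fold change was 0.12, against 0.05 on chromosome 7. Of the 470, 14 were called higher and 0 lower, beside 0.588% and 0.03% of all tested genes. An edgeR unadjusted p under 0.05 was reached by 28.9% of them, against 15.6% on chromosome 7 and 14.3% of all tested genes. Both KO samples lay above both WT samples for 51.9% of them, against 34.4% on chromosome 7 and 24.1% of all tested genes. The difference between the chromosomes was not tested. The other 797 tested genes of chromosome 7 had a median of 0.01, with 4 called higher and 0 lower.

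The genes around the members were examined next. Of 92 genes without a ZNF symbol within 100 kb of a member, 59 were tested and 0 were called. Their median log2 fold change was 0.01, 30 of 59 were positive, and at an unadjusted p under 0.05, 5 were higher and 5 lower. Over all tested genes 8.14% were higher and 6.17% lower at that threshold. Of the 13 tested neighbours in 7q36, 4 were higher at that threshold, namely ZBED10P at 0.40, ATP6V0E2-AS1 at 0.44, LOC155060 at 0.39 and GHET1 at 0.53, which were picked out after their values were seen. The smallest adjusted p among them was 0.0978, for ZBED10P.

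The neighbouring genes with ZKSCAN or ZSCAN symbols, which encode zinc finger proteins with a SCAN domain, were not called either. ZKSCAN1 had 5590 and 7084 counts in KO and 5746 and 4705 in WT (log2 fold change 0.12, edgeR adjusted p 0.472). ZKSCAN5, ZSCAN21 and ZSCAN25 had log2 fold changes of -0.02, 0.03 and 0.04.

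Genes of chromatin silencing, among them partners of KRAB zinc finger proteins and subunits of the HUSH complex, were taken as a list of 15 genes, all tested. Of these, 1 was called higher and 0 lower. TASOR, a subunit of the HUSH complex, had 12632 and 15590 counts in KO and 7942 and 6728 in WT, or 0.78 on the log2 scale (SE 0.07) with an edgeR adjusted p of 1.37e-04. The corepressor TRIM28 had 50485 and 52583 counts in KO and 50494 and 47687 in WT (log2 fold change -0.09, edgeR adjusted p 0.565). SETDB1 stood at 0.14 and the nucleosome remodeller CHD3 at -0.16, with edgeR adjusted p of 0.307 and 0.268. The other members of the list (ATF7IP, ATRX, CBX1, CBX3, CBX5, DAXX, HDAC1, HDAC2, MPHOSPH8, PPHLN1 and SMARCAD1) lay between -0.09 and 0.17, and the median of the list was -0.05.

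The read pairs of duplicated genes can be counted at the wrong copy, and multi-mapping pairs were counted in these data. Of the 37 members whose transcript could be searched, 14 shared no 65-base window with another gene and 10 shared more than 5% of their windows, 6 of them tested. The other gene was not always named as a zinc finger gene. It was wholly or mainly AC004877.1 for ZNF862, AC073111.3 for ZNF775, AC092647.5 for ZNF713 and RN7SKP187 for ZNF277. ZNF890P shared its windows with ZNF815P, and ZNF735 shared some with ZNF716 and ZNF479. The 5 members with an unadjusted p under 0.05 all shared less than 1%. Over the 20 tested members that shared less than 1% of their windows, 16 lay above 0 and their median log2 fold change was 0.07.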

How the data were processed

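Polyadenylated RNA of 2 MORC2 KO and 2 WT HEK293T samples was sequenced in read pairs of 65 bases. The authors aligned them to T2T-CHM13v2.0 with subread 2.0.6 and deposited counts of read pairs per RefSeq gene from featureCounts, without normalization. Per the file headers, multi-mapping pairs were counted, strand was not used and pairs over more than 1 gene were dropped, so duplicated and overlapping genes are less certain. The table held 0 columns of samples outside this series.

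Entrez identifiers were turned into symbols with the RefSeq annotation of GRCh38.p14 (28763 of 28775 matched). As in the study's methods, genes were filtered with filterByExpr, scaled with TMM factors (0.986 to 1.03) and compared on genotype alone with the quasi-likelihood F-test (edgeR 4.0.16 in its older form, R 4.3.3), with Benjamini-Hochberg adjustment over all tested genes at 0.05. The SE is the size of the log2 fold change over the square root of F. The biological coefficient of variation was 5.33%. The chi-square per degree of freedom between replicates was 16.8 in KO and 6.56 in WT, so no pair was a library deposited again. Tested on simulated data for this comparison (16525 genes), 90.8% of genes changed by 1 and 74.5% of genes changed by 0.5 on the log2 scale were called, with 4 false calls. Each simulated gene had the same dispersion in KO and WT. These shares therefore do not allow for genes or KO lines that vary more, and detection in the real data can be lower. GC content was that of GENCODE 29 transcripts (found for 94.9% of tested genes), in which 65-base windows shared between genes were also counted.

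The members and lists were chosen with earlier results of these data known. Full values were given for members called or with an unadjusted p under 0.05 and, in each positional group, for those with the highest and lowest log2 fold change and the highest WT level per kb. Other members and genes are given by ranges or because they overlap or adjoin a member, and genes of the last kind were picked out with their values known. Alternatives tried were DESeq2 1.42.0, the newer edgeR form, other scaling and filters, offsets on abundance or on GC content and length (loess, span 0.3), the replicate number in the model, and leaving out each sample.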

Additional observations from a re-analysis of the deposited data

How the results depend on the processing

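The count of 0 members called lower held under each alternative run, and the count of 0 called higher held with DESeq2, the newer edgeR form, RLE or library-size scaling, abundance offsets, the stricter filter and an adjusted p under 0.1. Members called higher were 2 with offsets on GC content and length (ZNF853 and ZNF736, beside 152 genes higher and 56 lower over the table), 3 with no filter on low counts (463 higher and 182 lower) and 0 to 6 when each sample was left out. There, 1 genotype has 1 sample, which is assumed to vary like the other genotype.

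The replicate numbers were not shown to pair the samples (correlation of the deviations -0.124), and the replicate block gave 2 members called higher (ZNF853 and ZNF736, with 237 higher and 42 lower over the table), or 1 with GC content and length offsets (174 higher and 56 lower). Crossed replicate numbers, tried after the data were seen, gave 3 members called higher, with 903 genes higher and 809 lower over the table. MORC2 stayed lower and called under all 10 other settings, from -0.75 to -0.67, and without each sample from -0.76 to -0.67.

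The median log2 fold change of all members was -0.0037 with GC content and length offsets, -0.0035 when these were combined with the replicate block, and 0.093 with library size alone, and it ran from 0.031 to 0.063 without each sample. For all tested genes the median was -0.037 with GC content and length offsets, with or without the replicate block, and 0.045 with library size alone. The 7q11 median was 0.068 with DESeq2, 0.021 with GC content and length offsets, 0.020 with these and the replicate block, 0.070 with RLE, 0.116 with library size alone, 0.047 with abundance offsets, 0.067 without the member that shares exonic bases and 0.076 to 0.090 without each sample. The 7p median was -0.034 with GC content and length offsets, -0.036 with these and the replicate block, 0.096 over protein-coding members only and -0.019 to 0.078 without each sample. The 7q36 median was 0.032 with DESeq2, -0.028 with GC content and length offsets, -0.027 with these and the replicate block, 0.080 with library size alone and 0.031 to 0.059 without each sample.

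Members near 0 changed sign. ZNF138 was -0.00094 with DESeq2, -0.041 with GC content and length offsets, with or without the replicate block, and -0.022 to 0.025 without each sample. ZNF282 was -0.0034 with DESeq2, -0.047 with GC content and length offsets, -0.048 with these and the replicate block, -0.0011 with RLE and -0.035 to 0.042 without each sample. ZNF316 was -0.053 with GC content and length offsets, with or without the replicate block, and -0.0056 to 0.034 without each sample. ZNF212 was 0.0025 with library size alone and ZNF789 ran from -0.072 to 0.328 without each sample. The median of all tested genes also differed between the settings, and the cause of these changes was not tested. The adjusted p over the alternatives that keep all samples ran from 6.1e-04 to 0.146 for ZNF853, 8.0e-04 to 0.153 for ZNF736 and 0.010 to 0.248 for ZNF783. Detection of changes under 0.5 on the log2 scale was not simulated.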
